A study of Mus musculus with 4 samples.

Results

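The genes described are a set of 33 for protein folding in the endoplasmic reticulum (ER), namely ER chaperones, disulfide isomerases, translocon subunits, components of ER-associated degradation and regulators of the unfolded protein response. They were taken by gene symbol from a table of read counts for 23481 genes, and all 33 were found and could be tested. Between Asns-silenced mouse breast cancer cells grown without and with asparagine, 1 of the 33 was called (edgeR adjusted p under 0.05), the transcription factor gene Xbp1, which was lower without asparagine, a share near the 1.85% of all genes called. That call was lost with another scaling and with either library with asparagine left out, and no gene of the set differed by 2-fold. The cells were 4T1-T, which derive from the mouse mammary tumour line 4T1, and carried a silenced Asns gene, which encodes asparagine synthetase, in both groups. There were 2 libraries from cells grown in DMEM without asparagine and 2 from cells grown in DMEM with asparagine, each pair lettered A and B. Within a group, values are given in the order A, B. In bulk RNA of this kind, fewer cells of a type and less RNA per cell cannot be told apart. The labels do not say whether libraries of a group came from separate cultures, how Asns was silenced or whether the line was a clone, and the p-values therefore reflect spread between these libraries, possibly only technical.

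Proteins destined for secretion or for membranes enter the ER through the Sec61 channel, are folded there by chaperones such as BiP and GRP94 and by enzymes that form disulfide bonds, and are sent back to the cytosol for degradation when folding fails. When unfolded proteins build up, the membrane sensors IRE1 (encoded by Ern1), ATF6 and PERK (encoded by Eif2ak3) start the unfolded protein response. IRE1 splices the messenger RNA of Xbp1 so that an active transcription factor is made, and cleaved ATF6 enters the nucleus. XBP1 and ATF6 together raise the genes of chaperones and of ER-associated degradation. PERK phosphorylates eIF2 alpha, the step that the amino acid sensor GCN2 also carries out, and so shares the ATF4 pathway with amino acid shortage. Counts per gene do not separate spliced from unspliced Xbp1, and they do not measure the activity of a sensor.

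The promoters of many of these genes carry the ER stress response element (ERSE), whose CCAAT end is bound by NF-Y and whose CCACG end is bound by ATF6 and XBP1. RefSeq promoter windows on GRCm38.p6, from 250 bases before to 50 bases after a start site, were searched on both strands for the ERSE, written as CCAAT, then 9 bases of any kind, then CCACG. A window was found for 27 of the 33 genes, and 8 of those 27 held an exact ERSE. Among all 27025 genes with a window, 37 held one, a share of 0.137%. Many of these promoters were already known to carry the element, so the share among the 27 is not an independent result. The sites of these 8 of the 27 genes are shown, and they were not used to choose the genes. They are written 5′ to 3′ in the direction that puts CCAAT first, with the fixed letters in capitals, and Hsp90b1 held 2 of them.
Calr (chr8:84847075-84847093, + strand): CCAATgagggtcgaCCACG
Canx (chr11:50325800-50325818, - strand): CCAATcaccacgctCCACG
Creld2 (chr15:88819520-88819538, - strand): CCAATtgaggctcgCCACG
Dnajc3 (chr14:118937827-118937845, + strand): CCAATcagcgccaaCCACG
Hsp90b1 (chr10:86705533-86705551, + strand): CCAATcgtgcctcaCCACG
Hsp90b1 (chr10:86705638-86705656, - strand): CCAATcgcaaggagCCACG
Hspa5 (chr2:34772025-34772043, + strand): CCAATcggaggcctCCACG
Pdia6 (chr12:17266491-17266509, + strand): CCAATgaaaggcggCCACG
Syvn1 (chr19:6046532-6046550, + strand): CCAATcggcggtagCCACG

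The shorter ERSE-II, written as ATTGG, 1 base of any kind and CCACG, shares its CCACG end with the ERSE and was found in the windows of Herpud1 and Dnajb11, against 0.044% of all genes. Fixed letters are again in capitals.
Dnajb11 (chr16:22857852-22857862, + strand): ATTGGcCCACG
Herpud1 (chr8:94386377-94386387, + strand): ATTGGgCCACG

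The XBP1 target core TGACGTGG was found in 1 window of Txndc5 and in 0.714% of all genes. No window was found for Atf6, Hyou1, Hspa13, Manf, Derl1 and Sec61a1. A match is a description of letters and not evidence of binding, and no share of matches was tested. Whole windows are given for Hspa5, which encodes BiP and holds an ERSE, for Herpud1, which holds an ERSE-II, and for Xbp1, the gene that passed the test, in whose window none of these elements was found. Capitals mark the fixed letters of a match.
Hspa5 (chr2:34771840-34772139, + strand): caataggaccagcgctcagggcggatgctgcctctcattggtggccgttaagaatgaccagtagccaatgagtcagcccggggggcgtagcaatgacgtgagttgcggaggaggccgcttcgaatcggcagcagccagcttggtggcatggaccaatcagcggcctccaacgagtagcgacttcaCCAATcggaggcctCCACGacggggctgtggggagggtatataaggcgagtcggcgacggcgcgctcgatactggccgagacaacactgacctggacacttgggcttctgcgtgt
Herpud1 (chr8:94386179-94386478, + strand): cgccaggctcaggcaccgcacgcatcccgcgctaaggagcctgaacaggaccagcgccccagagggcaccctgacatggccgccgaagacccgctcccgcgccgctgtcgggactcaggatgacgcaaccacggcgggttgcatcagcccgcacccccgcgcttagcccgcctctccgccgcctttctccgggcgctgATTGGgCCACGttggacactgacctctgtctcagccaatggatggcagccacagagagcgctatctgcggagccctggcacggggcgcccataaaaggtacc
Xbp1 (chr11:5520391-5520690, + strand): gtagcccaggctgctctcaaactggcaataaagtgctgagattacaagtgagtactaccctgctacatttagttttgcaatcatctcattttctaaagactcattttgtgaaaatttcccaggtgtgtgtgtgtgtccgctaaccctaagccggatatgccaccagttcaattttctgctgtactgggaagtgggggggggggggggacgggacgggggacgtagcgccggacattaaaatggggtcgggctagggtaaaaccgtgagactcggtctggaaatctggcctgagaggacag

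**Figure D1:**
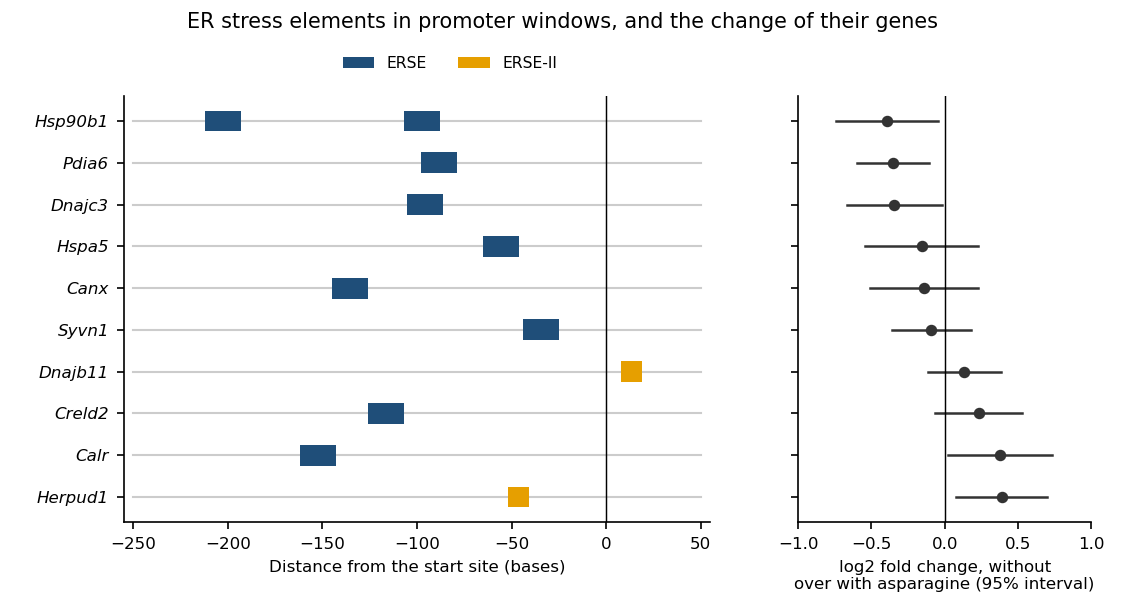
ERSE (blue) and ERSE-II (orange) matches in the promoter windows of 10 genes, plotted by distance in bases from the start site (left), and the log2 fold change of the same genes without over with asparagine with its 95% interval (right). Genes with an element lie on both sides of 0, from -0.39 for Hsp90b1 to 0.39 for Herpud1.

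The 8 genes with an ERSE had fold changes of both signs. On the log2 scale of the fold change, without over with asparagine, 6 were below 0 and 2 above, with a median of -0.15, and with library A without asparagine left out 4 were below and 4 above, with a median of 0.02. The 19 genes with a window but no exact ERSE had 14 below 0 and 5 above, with a median of -0.09, and 10 below and 9 above with that library left out, with a median of -0.01. Of the 37 genes with an ERSE in the whole reference, 16 were tested, and these include the 8 genes above. Of these 16, 12 were below 0 and 4 above, with a median of -0.14. With library A without asparagine left out, 10 were below and 6 above, with a median of -0.09. With library B without asparagine left out, the medians of these sets, in the order given, were -0.38, -0.19 and -0.23. Below 0 were then 6 of 8, 14 of 19 and 10 of 16.

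Counts assigned to genes were 17977552 and 22581543 without asparagine and 23867011 and 30260582 with asparagine, and the 33 genes had between 107 and 105714 reads in a library. Library A without asparagine stood apart from the others. Reads outside any feature made up 56.6% and 47.4% of reads without asparagine, and 49.3% and 46.3% with it. The ribosomal RNA precursor Rn45s took 3.53% and 1.66% of gene counts without asparagine, and 0.884% and 1.18% with it. Where leaving out library A without asparagine moved a fold change by over 1.5 times or turned its sign, the value without that library is given. For several genes together its range is given. Which library without asparagine is nearer to the usual state of these cells was not tested. A fit without the 10 most abundant genes, Rn45s and Hspa5 among them, had a median log2 fold change of -0.13 over the remaining members. The median over all members was -0.14. The part of the Rn45s share and of the reads outside features in the results was otherwise not tested. The silenced gene Asns was at 75.0 and 89.2 CPM (counts scaled to an equal library total, with TMM factors) without asparagine, against 103 and 101 CPM with asparagine, a log2 fold change of -0.31 (edgeR adjusted p = 0.235), and -0.19 without library A without asparagine. With no unsilenced library, this does not measure the silencing. The 5 epithelial markers looked for (Krt8, Krt18, Krt14, Epcam and Cdh1) were all present, with a summed level of 935 and 916 CPM without asparagine and 748 and 828 CPM with it. Summed over each list, 5 leukocyte, 3 endothelial and 2 adipocyte markers had at most 7.83, 0.801 and 0.126 CPM in any library, with Cd3e and Adipoq at 0 reads in all of them. The 4 fibroblast markers (Pdgfra, Pdgfrb, Col1a1 and Dcn) summed to 18.5 and 23.1 CPM without asparagine and 43.3 and 41.0 CPM with it.

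The 33 genes together took 1.06% and 1.31% of gene counts without asparagine and 1.35% and 1.37% with it. Library A without asparagine was therefore low, while library B of the same group lay close to the libraries with asparagine. Most of these counts came from the HSP70 and HSP90 chaperones and their partners, which took 0.548% and 0.693% without asparagine and 0.724% and 0.736% with it.

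**Figure D2:**
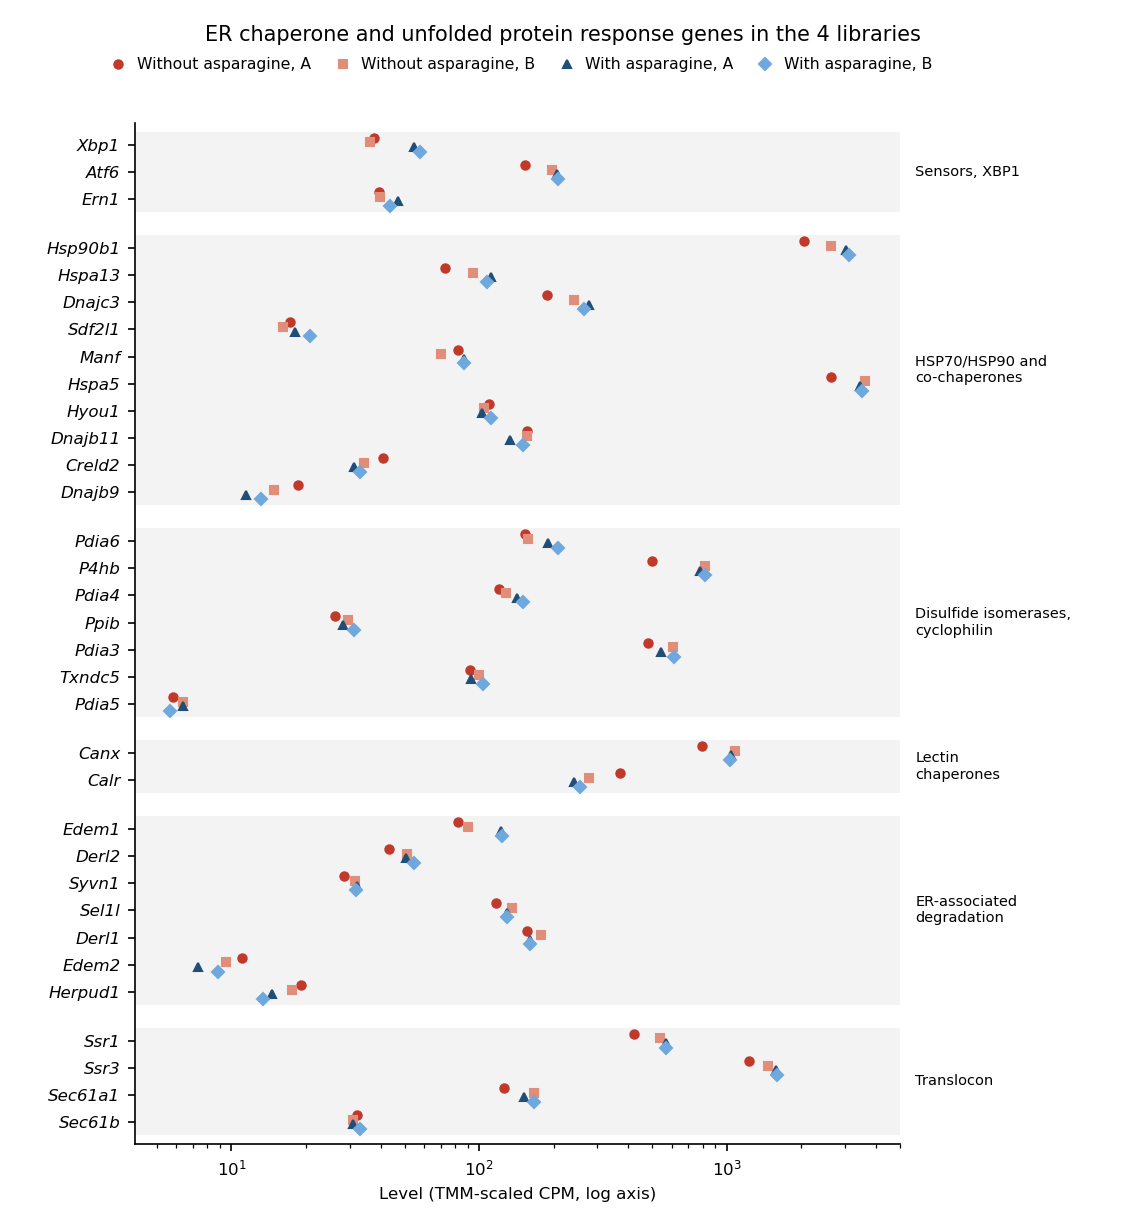
Level of each of the 33 genes in the 4 libraries (TMM-scaled CPM, log axis), ordered by role and, within a role, by fold change. Circles and squares are libraries A and B without asparagine, triangles and diamonds libraries A and B with asparagine. In Xbp1 and Edem1 both libraries without asparagine lie left of both with it, while for Hspa5 and P4hb only library A without asparagine does.

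Levels per length spanned more than 2 orders of magnitude. In CPM per kilobase of exon (RPKM), Hspa5 averaged 834 without and 930 with asparagine, and Hsp90b1, which encodes GRP94, 830 without and 1089 with. These 2 genes overlapped in library values without asparagine and were separate with it. Ssr3, a subunit of the translocon-associated complex, followed at 346 RPKM without and 407 RPKM with asparagine. P4hb, Canx, Pdia3 and Calr came next, between 148 and 230 RPKM without and between 114 and 279 RPKM with asparagine. Lowest were Pdia5, at 3.37 RPKM without and 3.32 RPKM with asparagine, and Edem2, at 4.49 without and 3.53 with, with the sensor gene Ern1 at 4.88 without and 5.55 with and Dnajb9 at 6.78 without and 5.0 with. Xbp1 lay in the lower part of the set, at 15.5 RPKM without and 23.5 RPKM with asparagine.

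The comparison addresses whether asparagine in the medium alters expression of these genes. Of the 33 genes, 1 was lower without asparagine and 0 were higher, with a threshold of 0.05 on the adjusted p (edgeR quasi-likelihood test with Benjamini-Hochberg adjustment over 12843 genes). Among all tested genes 1.85% were called, 0.771% higher and 1.07% lower, so 1 call in 33 is a count near that background. At an unadjusted p under 0.05, 3 of the genes were higher and 6 lower, a rule that 18.1% of all genes met, 8.65% higher and 9.48% lower. The median log2 fold change was -0.14, against 0.01 over all tested genes. Of the 33, 24 were below 0 and 9 above, which is 27.3% above beside 51.4% of all tested genes. With library A without asparagine left out 15 of the 33 were above 0, and with library B of that group left out 8. The CPM values of the groups did not overlap for 20 of the 33, 14 of them lower and 6 higher without asparagine. Among all tested genes 52.5% had groups that did not overlap, 26.4% lower and 26.1% higher. The 95% interval of the fold change lay within 2-fold in both directions for all 33 genes, against 80.9% of all tested genes, and within 1.5-fold for 22 of them, against 52.0%.

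**Figure D3:**
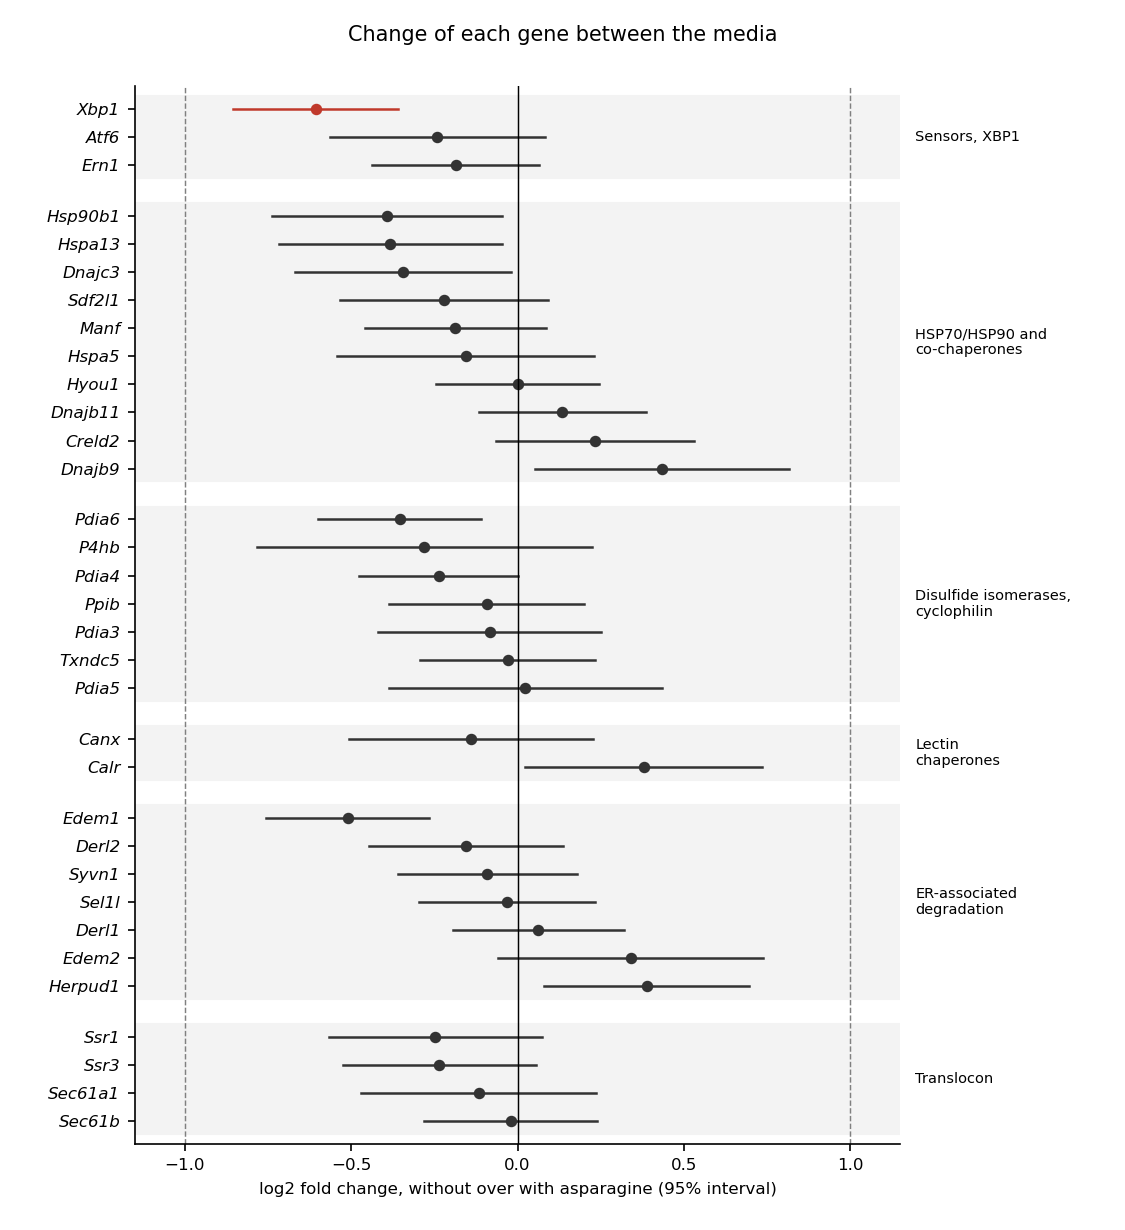
Log2 fold change of each gene, without over with asparagine, with its 95% interval from the edgeR fit on 2 libraries a group. Red marks Xbp1, the gene past the adjusted p threshold, and dashed lines mark 2-fold. Every interval lies between the dashed lines.

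Among the sensor and transcription factor genes of the set, Xbp1 alone was called by edgeR, and not in every alternative fit. Creb3l2, a transcription factor gene outside the set, was also called lower and is described below. The level of Xbp1 was 37.7 and 36.2 CPM without asparagine, against 54.6 and 57.9 CPM with asparagine. Both libraries without asparagine were low by a similar amount, and the groups did not overlap. It fell by 0.61 on the log2 scale (SE 0.11, 95% interval -0.86 to -0.36, edgeR adjusted p = 0.0424), so that the level with asparagine was 1.52 times that without. The fold change was nearly the same whichever library without asparagine was used, -0.64 without library A and -0.58 without library B. The call was lost without library A with asparagine (-0.65, edgeR adjusted p = 0.446), without library B with asparagine (-0.57, edgeR adjusted p = 0.607) and with upper quartile scaling (-0.56, edgeR adjusted p = 0.0632). The gene lies on the forward strand at chr11:5520659-5525893 (mm10, GENCODE M21), with no exon of another gene overlapping its own.

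The sensor genes were not called. Ern1 had 39.6 and 40.0 CPM without asparagine, against 46.9 and 43.5 CPM with asparagine. Its groups were separate by a small margin, with a log2 fold change of -0.19 (95% interval -0.44 to 0.07, edgeR adjusted p = 0.397). Atf6 had 154 and 198 CPM without asparagine, against 207 and 209 CPM with asparagine. Library A without asparagine was low and library B just under both with it, and the log2 fold change of -0.24 (edgeR adjusted p = 0.393) was -0.07 when library A of this group was left out.

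Among the HSP70 and HSP90 chaperones and their partners, none of 10 genes was called. Of the 10, 6 were below 0 and 4 above, with a median of -0.17. At an unadjusted p under 0.05, 1 was higher and 3 lower, which is 40.0% beside 18.1% of all genes. The median was -0.11 with library A without asparagine left out, and -0.13 with library B of that group left out. Hspa5, whose product BiP is the main HSP70 of the ER and holds the sensors inactive, had 2639 and 3624 CPM without asparagine, against 3452 and 3527 CPM with asparagine. Library A without asparagine was the lowest and library B the highest of the 4, so the groups overlapped. The log2 fold change of Hspa5 was -0.16 (95% interval -0.54 to 0.23, edgeR adjusted p = 0.64), and 0.05 without library A. Hsp90b1, with 2 ERSE matches, had 2043 and 2645 CPM without asparagine, against 3040 and 3113 CPM with asparagine. Both libraries without asparagine lay below both with it, library A further than library B. The log2 fold change of Hsp90b1 was -0.39 (95% interval -0.74 to -0.05, edgeR adjusted p = 0.23), and -0.22 without library A without asparagine. Exons of other genes overlap those of Hsp90b1 on both strands, and its counts may include or lose reads there.

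Differences ran both ways among the J-domain partners of BiP, which stimulate its ATPase. Dnajb9, encoding ERdj4, had 18.6 and 14.8 CPM without asparagine, against 11.4 and 13.2 CPM with asparagine. The groups were separate, with library A without asparagine highest, and the log2 fold change was 0.44 (95% interval 0.05 to 0.82, edgeR adjusted p = 0.23), and 0.26 without that library. Dnajc3, encoding p58IPK, which also inhibits eIF2 alpha kinases, had 188 and 241 CPM without asparagine, against 279 and 266 CPM with asparagine (log2 fold change -0.35, edgeR adjusted p = 0.252, and -0.18 without library A without asparagine). Dnajb11, encoding ERdj3, had a level of 156 CPM in each library without asparagine, against 134 and 151 CPM with asparagine, a log2 fold change of 0.14 (edgeR adjusted p = 0.528). All 3 had separate groups, as 52.5% of all tested genes did, with Dnajc3 lower and Dnajb9 and Dnajb11 higher without asparagine. Hspa13, a further HSP70 of the microsomal fraction, had 72.9 and 94.9 CPM without asparagine, against 111.5 and 107 CPM with asparagine (log2 fold change -0.38, edgeR adjusted p = 0.228). Its groups were also separate, with library A without asparagine lowest, and its log2 fold change was -0.21 without that library.

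Hyou1, a nucleotide exchange factor for BiP, had 109.5 and 105 CPM without asparagine, against 103 and 111.5 CPM with asparagine, and a log2 fold change of 0.00 (95% interval -0.24 to 0.25), and -0.03 without library A without asparagine. Its groups overlapped. The secreted factor Manf and the stress-inducible Sdf2l1 had log2 fold changes of -0.19 and -0.22, and Creld2, another ER stress-inducible secreted protein gene, 0.23. Without library A without asparagine these were -0.31 for Manf, -0.27 for Sdf2l1 and 0.10 for Creld2. Manf was lowest in library B without asparagine rather than in library A, at 70.3 CPM against 82.2 CPM.

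Disulfide isomerases catalyse the making and reshuffling of disulfide bonds. Of these 6 genes and the cyclophilin Ppib, 6 were below 0, 1 was above and none was called. At an unadjusted p under 0.05, 1 was lower, which is 14.3% beside 18.1% of all genes. The median of the 7 was -0.09, and with library A without asparagine left out it was 0.02, with 4 above 0. With library B without asparagine left out it was -0.27, and 0 of the 7 were above 0. Pdia6 had 153 and 158 CPM without asparagine, against 189 and 208 CPM with asparagine. The libraries without asparagine were close to each other and below both with it. The log2 fold change of Pdia6 was -0.35 (95% interval -0.60 to -0.11, edgeR adjusted p = 0.159), and it was -0.33 without library A without asparagine. Its exons overlap a gene on the opposite strand, as do those of Dnajb9, Manf, Pdia3, Txndc5, Ppib, Syvn1, Derl2 and Sec61a1. Pdia4 had 121 and 128 CPM without asparagine, against 142 and 151 CPM with asparagine (log2 fold change -0.24, edgeR adjusted p = 0.281). Its groups were likewise separate. Of all members, P4hb, encoding the founding enzyme PDI, had the widest log2 ratio within a group (-0.70, library A over B without asparagine). It had 500 and 814 CPM without asparagine, against 783 and 814 CPM with asparagine. Library A without asparagine alone was low, and the log2 fold change of -0.28 (95% interval -0.78 to 0.22, edgeR adjusted p = 0.512) was 0.03 without it. Pdia3, the isomerase that works with the lectin chaperones, Txndc5, Ppib and Pdia5 had log2 fold changes between -0.09 and 0.02 and overlapping groups, and between -0.01 and 0.08 without that library.

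The lectin chaperones, which hold glycoproteins in the folding cycle, differed in sign. Calr, encoding the soluble calreticulin, had 371 and 277 CPM without asparagine, against 241 and 257 CPM with asparagine. Both libraries without asparagine were higher, library A by more, and the log2 fold change was 0.38 (95% interval 0.02 to 0.74, edgeR adjusted p = 0.251). It was 0.15 without library A without asparagine. Canx, encoding the membrane-bound calnexin, had 798 and 1082 CPM without asparagine, against 1045 and 1027 CPM with asparagine. Library A without asparagine was the lowest and library B the highest, so the groups overlapped (log2 fold change -0.14, edgeR adjusted p = 0.657). The fold change of Canx was 0.06 without library A without asparagine.

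Of 7 genes of ER-associated degradation none was called in the main edgeR fit, 4 were below 0 and 3 above. An unadjusted p under 0.05 was met by 1 lower and 1 higher, which is 28.6% beside 18.1% of all genes. The median of the 7 was -0.03, and with library A without asparagine left out it was 0.07, with 4 above 0. With library B without asparagine left out it was -0.15, with 2 above 0. Edem1, a mannosidase-like protein that directs misfolded glycoproteins out of the folding cycle and a target of XBP1, had 82.3 and 90.3 CPM without asparagine, against 123 CPM in each library with asparagine. Both libraries without asparagine were low by a like amount. Its log2 fold change of -0.51 (SE 0.10, 95% interval -0.76 to -0.26) had an edgeR adjusted p of 0.07, next to Xbp1 the smallest of the set. The DESeq2 Wald test called it lower (log2 fold change -0.51, DESeq2 adjusted p = 0.0195), as 2.11% of all genes were (3.61% in either direction). Its fold change was -0.45 without library A and -0.58 without library B of the cells without asparagine. The gene lies at chr6:108828641-108859356 (mm10, GENCODE M21, forward strand), with no exon overlap.

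Herpud1, a membrane protein that assembles the degradation complex, differed in the other direction. It had 19.2 and 17.5 CPM without asparagine, against 14.6 and 13.4 CPM with asparagine. The groups were separate and the libraries of each group close. The log2 fold change was 0.39 (95% interval 0.08 to 0.70, edgeR adjusted p = 0.195), and 0.32 without library A without asparagine. Edem2, another mannosidase of this pathway, had 11.1 and 9.48 CPM without asparagine, against 7.36 and 8.81 CPM with asparagine (log2 fold change 0.34, edgeR adjusted p = 0.34, and 0.22 without library A without asparagine). The ubiquitin ligase Syvn1 (HRD1), its partner Sel1l and the channel proteins Derl1 and Derl2 had log2 fold changes between -0.15 and 0.06, and between -0.04 and 0.15 without that library. Derl1, the most abundant of the 7, had 156 and 178 CPM without asparagine, against 160 CPM in each library with asparagine.

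The 4 translocon genes were below 0, with a median log2 fold change of -0.18. None was called, nor did any meet an unadjusted p under 0.05, a rule met by 18.1% of all genes. With library A without asparagine left out the median was -0.07 and Sec61a1 was above 0. With library B of that group left out the median was -0.35, with 1 gene above 0. Ssr3 had 1235 and 1469 CPM without asparagine, against 1583 and 1600 CPM with asparagine. Its groups were separate (log2 fold change -0.24, edgeR adjusted p = 0.363). Ssr1, of the same complex, had 421 and 536 CPM without asparagine, against 569 and 567 CPM with asparagine (log2 fold change -0.25, edgeR adjusted p = 0.38). In both genes library A without asparagine was the lowest, and without it the fold changes were -0.12 for Ssr3 and -0.09 for Ssr1. Sec61a1, the pore of the channel, and Sec61b, its small subunit, had overlapping groups and log2 fold changes of -0.12 and -0.02, and of 0.07 and -0.05 without that library.

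The libraries without asparagine differed from each other more than those with it. The median absolute log2 ratio of library A to library B was 0.22 without asparagine and 0.09 with it over the 33 genes, close to the 0.23 without and 0.10 with asparagine over all tested genes. When library B alone stood for the cells without asparagine, the median of the 33 was -0.02, 15 of them were above 0, and Xbp1, Hsp90b1, Manf, Pdia6 and Edem1 were called lower (15.6% of all genes were called, 8.7% lower). When library A alone stood for them, the median was -0.20 and 16 genes were called lower and 5 higher (40.4% of all genes were called, 21.6% lower and 18.9% higher). With no low-count filter, Xbp1, Hsp90b1 and Edem1 were called lower (6.73% of all genes were called). With a library with asparagine left out, edgeR called none of the 33 (0.438% of all genes without library A, 0.363% without library B), with Xbp1 and Edem1 lower at an unadjusted p under 0.05 in both fits. In fits with a library left out, the lone library was assumed to vary like the libraries of the other group. Across the edgeR fit and its 12 alternatives, 16 of the 33 kept a fold change below 0, among them Xbp1, Edem1, Pdia6, Pdia4, Hsp90b1, Ern1 and Atf6. Dnajb9, Dnajb11, Creld2, Calr, Herpud1 and Edem2 were above 0 in all of them, and 11 genes changed sign in at least 1. The alternatives reuse the same libraries, so agreement in sign is partly built in. The share of all tested genes that kept their sign was not counted.

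**Figure D4:**
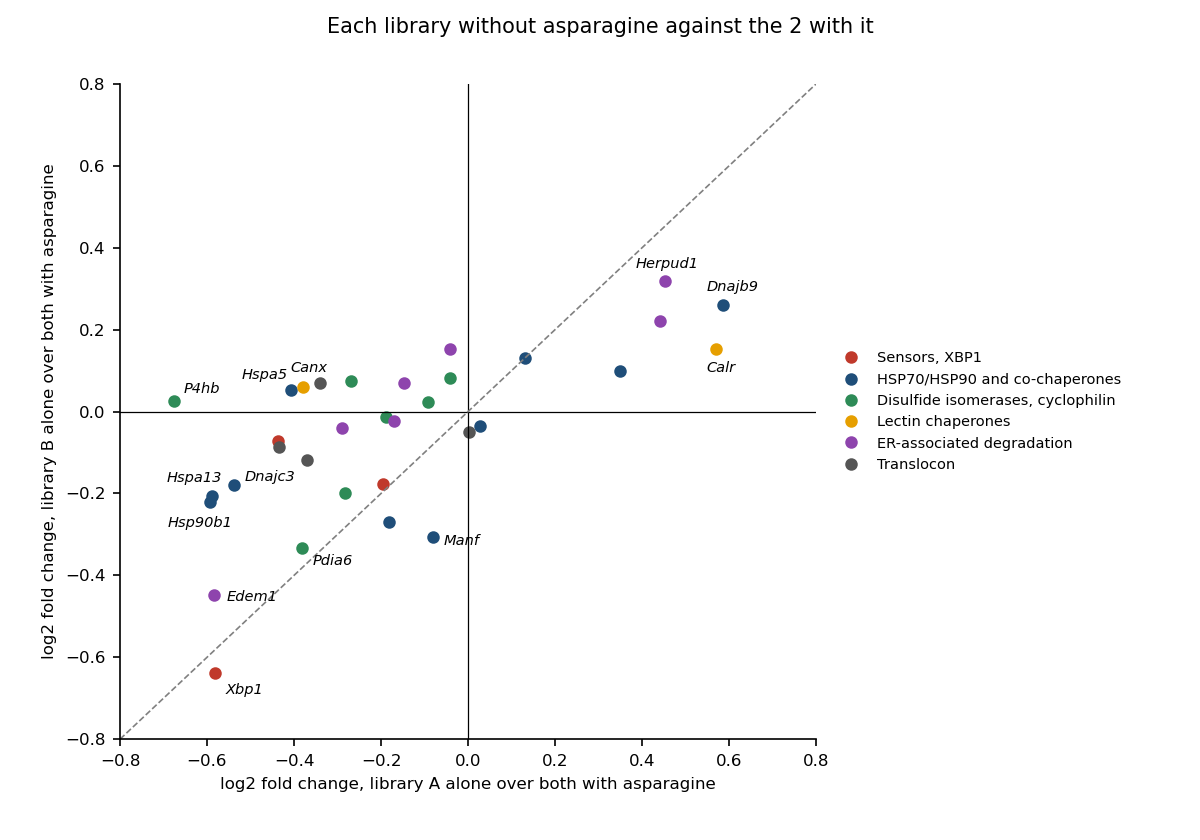
Log2 fold change of each of the 33 genes when library A alone (horizontal axis) or library B alone (vertical axis) represents the cells without asparagine, against both libraries with asparagine, coloured by role, with the dashed line marking equal values. Xbp1, Edem1 and Pdia6 lie near the line, while P4hb, Hspa5 and Canx lie at -0.68, -0.41 and -0.38 on the horizontal axis and near 0 on the vertical.

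Further genes were read from 9 lists with 159 symbols, 7 lists of the ER and its export and 2 of cytosolic and mitochondrial chaperones, and 152 of them were tested. Of these, 0 were called higher and 2 lower by edgeR, which is 1.32% beside the 1.85% of all genes. At an unadjusted p under 0.05, 15 were higher and 12 lower, which is 17.8% beside 18.1% of all genes. The DESeq2 Wald test called 3 higher and 2 lower, beside 3.61% of all genes called in either direction. The median log2 fold change was -0.04, with 0.02 when library A without asparagine was left out and -0.07 when library B was. Creb3l2, a membrane-bound transcription factor gene of the ATF6 type, had 26.4 and 24.1 CPM without asparagine, against 44.3 and 49.8 CPM with asparagine. The groups were well separate, and it fell by 0.90 on the log2 scale (SE 0.12, edgeR adjusted p = 0.0206). Qsox1, a sulfhydryl oxidase of the secretory pathway, had 16.9 and 17.0 CPM without asparagine, against 27.1 and 28.2 CPM with asparagine. The libraries of a group were nearly equal, and it fell by 0.71 on the log2 scale (SE 0.12, edgeR adjusted p = 0.0368). The 22 tested oxidoreductases and prolyl isomerases of its list had a median of -0.14. Both calls were lost without library A with asparagine (edgeR adjusted p = 0.0841 for Creb3l2 and 0.339 for Qsox1) and without library B with asparagine (edgeR adjusted p = 0.215 and 0.462 in the same order). The Qsox1 call was also lost with upper quartile scaling (edgeR adjusted p = 0.0512).

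In the list of ER stress signalling, 11 of 18 tested genes were above 0 and 7 below, with a median of 0.15. With library B without asparagine left out the median was 0.01, with 9 above 0, and with library A left out it was 0.19. Besides Creb3l2, the main edgeR fit called no gene of this list. At an unadjusted p under 0.05 in that fit, 5 were higher and 1 lower, which is 33.3% beside 18.1% of all genes. The DESeq2 Wald test called Atf3 and Nupr1 higher, beside 3.61% of all genes called in either direction. Atf3, whose product is a bZIP repressor or activator induced by stress, had 5.99 and 7.51 CPM without asparagine, against 3.32 and 3.40 CPM with asparagine. Its groups were separate, and its log2 fold change of 1.009 was the highest of the list (edgeR adjusted p = 0.0638, DESeq2 adjusted p = 0.034). Eif2ak3, encoding PERK, had 10.08 and 9.75 CPM without asparagine, against 11.05 and 10.01 CPM with asparagine, and its groups overlapped. Atf4 and Ddit3 (CHOP) lie downstream of PERK and of amino acid shortage, and their log2 fold changes were 0.23 for Atf4 (edgeR adjusted p = 0.37) and 0.81 for Ddit3 (edgeR adjusted p = 0.127). Without library A without asparagine, the fold change of Atf4 was 0.09. Ddit3 was called higher with no low-count filter (edgeR adjusted p = 0.00829), a fit that called 6.73% of all genes. In this list that fit also called Atf3 and Nupr1 higher and Creb3l2 lower. The values of Atf4 and Ddit3 were separate between the groups. Atf4 was at 244 and 204 CPM without asparagine, against 183 and 198 CPM with asparagine. Ddit3 was at 6.43 and 5.14 CPM without asparagine, against 3.11 and 3.47 CPM with asparagine.

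In the remaining 7 lists the main edgeR fit called no gene, and the DESeq2 Wald test called Sec11c (3.61% of all genes were called by DESeq2). Their medians were -0.09 for further HSP70 partners (12 tested), -0.05 for N-glycosylation and the lectin cycle (20 tested), 0.00 for translocation and signal peptide cleavage (20 tested), -0.06 for further degradation genes (19 tested), -0.03 for COPII vesicle export (15 tested), 0.05 for cytosolic chaperones (16 tested) and 0.03 for mitochondrial chaperones (10 tested). With library A without asparagine left out these medians lay between -0.02 and 0.12, and with library B left out between -0.14 and -0.02. The smallest p in each belonged to Cnpy2, Uggt1, Sec11c, Yod1, Sec24d, Hspa1b and Hspe1 in that order. Uggt1, the glucosyltransferase that returns unfolded glycoproteins to calnexin, had 270 and 333 CPM without asparagine, against 395.5 and 393 CPM with asparagine (log2 fold change -0.39, edgeR adjusted p = 0.185, and -0.25 without library A without asparagine). Sec11c, a catalytic subunit of signal peptidase, had 74.3 and 50.8 CPM without asparagine, against 37.5 and 37.8 CPM with asparagine (log2 fold change 0.73, edgeR adjusted p = 0.114, DESeq2 adjusted p = 0.00773). It was 0.43 without library A without asparagine. The cytosolic HSP70 gene Hspa1b had a log2 fold change of 0.58 (edgeR adjusted p = 0.11), with reads that it may share with its near-identical neighbour Hspa1a. Cnpy2, Yod1, Sec24d and Hspe1 had -0.28, 0.40, -0.29 and 0.36 on the same scale.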

How the data were processed

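Total RNA for the 4 libraries was purified with a Qiagen kit and prepared with the NuGEN Ovation V2 system, per the labels' protocols. Bowtie2, HTSeq and the build mm10 are named in the submitters' processing notes. Not given in the sources used here were versions, settings, strand use and annotation. The authors deposited raw counts of reads per gene symbol in 1 table, from which 5 HTSeq summary rows (60.1% to 70.0% of reads) were kept out.

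Genes that passed filterByExpr (minimum count 10, minimum total 15) were scaled by TMM. The test was the quasi-likelihood F test of edgeR 4.0.16, group as the only term, with Benjamini-Hochberg adjustment over 12843 genes. Fold changes are without over with asparagine. The SE is the fold change divided by the square root of F, and intervals use the test's degrees of freedom. CPM used TMM-scaled totals, and RPKM divided these by exon length in the GENCODE M21 basic set. Alternatives used limma 3.58.1 and DESeq2 1.42.0 among others. The fit was also run on simulated counts with a common dispersion for all genes and no library that stood apart. That run does not show how the fit performs on these libraries. The members and lists were chosen with earlier results of these data known. Values per library are given for called members, the 2 smallest p and the most abundant member of each role, and the sensors. From each other list the called genes, or the one with the smallest p, are named, and further genes were chosen after their values were seen.

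Without stated strand use, reads of overlapping genes cannot be told apart. In the GENCODE M21 basic set exons of 10 members (Hsp90b1, Dnajb9, Manf, Pdia3, Pdia6, Txndc5, Ppib, Syvn1, Derl2 and Sec61a1) overlap exons on the opposite strand, and those of Hsp90b1, Manf and Pdia4 overlap another gene on the same strand. Bowtie2 alone does not split reads over introns, so exon junctions may be under-counted.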

Additional observations from a re-analysis of the deposited data

How the results depend on the processing

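The count of called genes among the 33 was 1, and it was 1 with DESeq2's size factors, limma-voom, the 5 CPM filter and the 10 most abundant genes left out. It was 0 with upper quartile scaling, 2 with the DESeq2 Wald test and 3 with no low-count filter, and between 0 and 21 with a library left out. Over all genes, 237 were called, against 464 with the DESeq2 Wald test, 1334 of 19828 with no filter, and between 48 and 5363 with a library left out. The cause of these shifts was not tested. The median of the 33 lay between -0.20 and -0.02. With the letter as a replicate block, 816 genes, 2 of the 33 (Xbp1 and Edem1) and 9 of the 152 further genes (5 higher, among them Atf3, Ddit3, Sec11c and Hspa1b, and 4 lower) were called. With no filter, 6 of these 152 were called higher and 9 lower. Same-letter deviations from the group means correlated at 0.123, from 2 pairs, and the labels do not say that a letter marks a shared culture. With 2 libraries a group, each fold change rests on 4 values, and intervals cover only the spread between these libraries.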
